A study of Homo sapiens with 6 samples.

Results

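AEBP1 and its relatives of the carboxypeptidase N/E subfamily are 8 human genes, namely AEBP1, CPXM1, CPXM2, CPZ, CPE, CPD, CPM and CPN1. They were chosen by gene symbol, for their family and not for their values, out of 24789 genes and assembled loci in the deposited table. Their transcripts were measured by RNA sequencing in LX-2, an established human cell line of hepatic stellate origin, the liver cells that lay down scar matrix. The libraries labelled AEBP1 siRNA came from LX-2 cells given 50 nM of a gene-specific siRNA, and those labelled scrambled siRNA from LX-2 cells given 50 nM of a scrambled one, each by lipid transfection for 48 hours. There were 3 libraries per group. No label says that the libraries were separate transfections, so the p-values reflect only how far these libraries spread, and that spread could be technical. Which sequence the siRNA targets is likewise not stated.

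Enzymes of this subfamily are zinc metallopeptidases that remove a basic residue, lysine or arginine, from the end of a protein or peptide. Some trim prohormones after a convertase has cut them, and others act on kinins and anaphylatoxins at the cell surface or in plasma. The long form of AEBP1, also called ACLP, is a secreted matrix protein. It has a collagen-binding discoidin domain before its carboxypeptidase-like domain. A short form was reported to repress transcription. AEBP1 is known as a gene of fibroblasts and activated stellate cells. CPXM1 and CPXM2 share the discoidin domain.

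The genes lie on chromosomes 7 (AEBP1), 20 (CPXM1), 10 (CPXM2 and CPN1), 4 (CPZ and CPE), 17 (CPD) and 12 (CPM). The coding sequences of AEBP1 and CPXM2 differ from that of CPE at some active-site places and match it at another. At the first zinc-binding histidine, codon 114 in CPE, AEBP1 has a histidine codon (codon 625), as do all members. The search pattern for that stretch required a histidine. In CPE a histidine codon, codon 248 counted from the start codon, encodes a ligand of the catalytic zinc. The stretches below are from the principal GENCODE release 29 transcript of each gene (GRCh38) and are written 5′ to 3′. They were chosen to set the members without this codon beside members that keep it, and capitals mark the codon at that place.
AEBP1, codon 763: ctgggagcaaatctgAACggcggcgagcgg
CPXM2, codon 517: ctgggcggcaacctgCAGggcggcgagctg
CPXM1, codon 498: ctaagtgccaacctcCACgggggtgagctc
CPE, codon 248: ctttctgccaatctcCATggaggagacctt
CPD, repeat 1, codon 257: ctttctggaaatctgCATggtggctcagtg
CPD, repeat 3, codon 1096: ctttctgttgccttaGATggtggttccatg
The capitals spell asparagine in AEBP1, glutamine in CPXM2 and aspartate in the third repeat of CPD, and histidine in the others shown. CPZ, CPM, CPN1 and the second repeat of CPD also have a histidine codon there.

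A further place is the glutamate codon of the active site, codon 342 in CPE. Capitals mark it in the stretches that follow, chosen for the same contrast.
AEBP1, codon 874: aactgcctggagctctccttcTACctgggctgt
CPXM2, codon 610: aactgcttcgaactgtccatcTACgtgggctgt
CPXM1, codon 591: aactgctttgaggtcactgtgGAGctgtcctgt
CPE, codon 342: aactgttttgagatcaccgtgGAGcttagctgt
CPD, repeat 3, codon 1181: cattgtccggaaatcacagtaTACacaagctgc
AEBP1, CPXM2 and the third repeat of CPD have a tyrosine codon at that place, while CPXM1 and CPE have a glutamate codon, as do CPZ, CPM, CPN1 and the other two repeats of CPD. The transcripts differ in length as well, with 4081 bases and 21 exons for AEBP1, 9394 bases and 21 exons for CPD, 6655 bases and 9 exons for CPM and 2421 bases and 9 exons for CPE.

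The libraries held between 34433510 and 49432960 counts each. Levels within a gene are given as scaled counts, which are counts per 1000000 after scaling for library size. Of the markers of stellate and mesenchymal cells, COL1A1, VIM and PDGFRB were detected in every library and 7 of 8 had at least 1 count, while LRAT was at 0 in all 6 and DES in 4 of 6. Mean scaled counts over the 6 libraries were 1513 for COL1A1, 1168 for VIM, 33.3 for PDGFRB and 29.2 for COL3A1. COL1A2 averaged 4.2 and ACTA2 4.02. The summed hepatocyte markers ALB, APOA1 and TTR were at 0 to 0.16 scaled counts in the libraries labelled AEBP1 siRNA and 0 to 0.228 in those labelled scrambled siRNA, and TTR was at 0. The 3 epithelial markers summed to 0.0532 to 0.144 and to 0 to 0.0913 scaled counts, the 3 leukocyte markers to 2.28 to 2.76 and to 1.83 to 3.21, and the 3 endothelial markers to 0.239 to 0.509 and to 0.0913 to 0.268, in the same order of groups. Of the leukocyte markers, CD14 averaged 2.01, CSF1R 0.414 and PTPRC 0.0243 scaled counts over the 6 libraries. In these bulk samples, fewer cells of a type and less RNA per cell cannot be told apart.

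Of the 8 members, 6 had counts in at least 1 library. Levels between genes were compared as deposited FPKM, which is per length. CPD, a membrane enzyme of the trans-Golgi network that trims proteins after furin-like cleavage, was the most abundant, at 18.4 ± 3.13 FPKM (SD, n = 6). AEBP1 came next at 9.45 ± 2.65 FPKM. CPZ, a secreted enzyme with a frizzled-like domain that binds extracellular matrix, was at 4.96 ± 0.482 FPKM. CPM, anchored by a lipid to the cell surface, was at 1.13 ± 0.287 FPKM, and CPE, the prohormone processing enzyme of neuroendocrine granules, at 0.532 ± 0.137 FPKM. CPXM1 was at 0.0719 ± 0.044 FPKM.

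This order held in all 6 libraries for each neighbouring pair from CPD down to CPXM1, and the ranges of neighbours did not overlap. The gaps were narrow at 2 places: the lowest CPD value was 12.5 FPKM where the highest AEBP1 value was 12.3, and the lowest CPM value was 0.708 FPKM where the highest CPE value was 0.689. CPXM2 and CPN1, the catalytic subunit of plasma carboxypeptidase N that hepatocytes make, were at 0 counts in all 6 libraries. Over the 247977824 counts of the 6 libraries together, a floor of 3 counts allows each of them up to 0.0121 scaled counts, which covers counting error only.

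**Figure D1:**
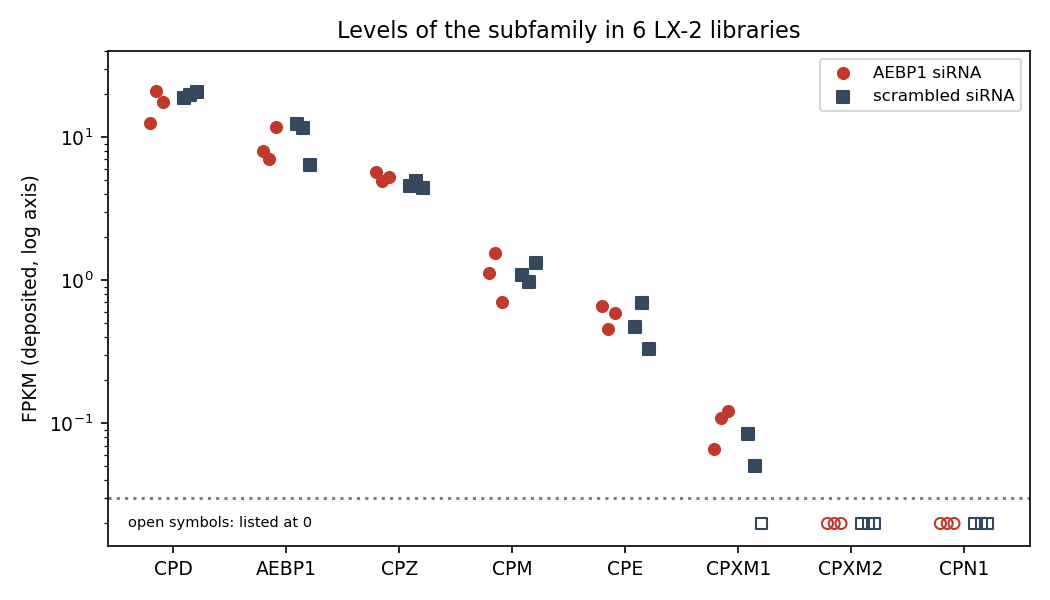
Deposited FPKM (log axis) of the 8 members, with AEBP1 siRNA libraries as circles left of the scrambled siRNA libraries as squares. Open symbols below the dotted line are values listed at 0, which are CPXM1 in scrambled siRNA 3 and all 6 values of CPXM2 and of CPN1.

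As shares of the summed FPKM of the subfamily, CPD made up 53.1%, AEBP1 27.2%, CPZ 14.6%, CPM 3.31%, CPE 1.56% and CPXM1 0.208%, as means over the 6 libraries. The AEBP1 share was 28.4%, 19.98% and 32.4% in AEBP1 siRNA 1, 2 and 3, and 33.0%, 30.4% and 19.2% in scrambled siRNA 1, 2 and 3. Its mean was 26.9% ± 6.34 in the libraries labelled AEBP1 siRNA and 27.5% ± 7.31 in those labelled scrambled siRNA (SD, n = 3 each; exact two-sided permutation p = 0.9, where 0.1 is the smallest p that 3 against 3 allows). The CPZ share was 20.5%, 14.04% and 14.5% in AEBP1 siRNA 1, 2 and 3, and 12.3%, 13.0% and 13.3% in scrambled siRNA 1, 2 and 3. The CPXM1 share was 0.236%, 0.314% and 0.337%, and 0.226%, 0.133% and 0% in the same order. For these 2 members the groups did not overlap in share, each with an exact permutation p of 0.1 and, adjusted by Benjamini-Hochberg over the 6 shares compared, 0.3. In scaled counts the groups of both members overlapped, where they did not overlap for 5.93% of all genes. These shares exist only within the subfamily, so no such percentage over all genes stands beside them. The CPXM1 shares of AEBP1 siRNA 1 and scrambled siRNA 1, 0.236% and 0.226%, came from 7 and 10 counts. A share also moves with the other members, and the CPD share was 44.6% in AEBP1 siRNA 1, where the CPZ share was highest.

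The gene that the siRNA targets had 29.7, 27.7 and 48.3 scaled counts in the libraries labelled AEBP1 siRNA 1, 2 and 3. It had 53.6, 48.7 and 25.1 scaled counts in those labelled scrambled siRNA 1, 2 and 3. The groups overlapped: AEBP1 siRNA 3 lay close to scrambled siRNA 2, and scrambled siRNA 3 was the lowest of all 6. AEBP1 thus went against the label in replicate 3 of both groups, and every direction between groups given here rests on libraries as labelled. Whether these 2 libraries were exchanged was not tested; an exchange would change what each group mean and direction stands for.

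The means of AEBP1 were 35.2 ± 11.4 scaled counts in the libraries labelled AEBP1 siRNA and 42.5 ± 15.2 in those labelled scrambled siRNA (SD, n = 3 each). On the log2 scale AEBP1 differed by -0.27, with an SE of 0.305 and a 95% interval of -0.97 to 0.43. The edgeR quasi-likelihood adjusted p was 0.991. Without replicate 3 of both groups, the log2 fold change of AEBP1 was -0.83. That value is a description only, since the AEBP1 level itself chose the libraries left out. With single libraries left out it ran from -0.57 without AEBP1 siRNA 3 to -0.07 without scrambled siRNA 1.

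AEBP1 varied more within its labelled groups than most genes did. Its within-group SD on the log2 scale was 0.523, larger than that of 97.7% of 11594 genes with a mean of at least 5 scaled counts, whose median was 0.165. The other members above that mean spread less, with 0.389 for CPM, 0.275 for CPD and 0.0988 for CPZ. These were larger than the SD of 93.9%, 83.8% and 20.5% of the same genes. Below that mean, CPXM1 spread more than AEBP1, at 0.985, and CPE was at 0.412.

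Strand was not stated for the counting, so reads of a neighbour on the opposite strand could bear on a count. In RefSeq (GRCh38.p14) the microRNA gene MIR4649 overlaps AEBP1 and was not analysed here. The flanking genes are POLM and POLD2, which encode a repair polymerase and a subunit of a replicative polymerase. POLD2 had 94.3, 76.3 and 82.4 scaled counts in AEBP1 siRNA 1, 2 and 3, and 87.5, 82.3 and 73.9 in scrambled siRNA 1, 2 and 3. POLM had 7.71, 7.6 and 8.09, and 6.33, 7.9 and 7.35 scaled counts in the same order. Neither split into the high and low libraries seen for AEBP1. Their log2 fold changes were 0.05 and 0.12, with edgeR adjusted p-values of 0.991.

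The other members were compared to see whether any relative differed between the groups. None was called: of the 6 members tested, 0 had an edgeR adjusted p under 0.05, where 0.00615% of the 16250 genes tested did. At an unadjusted p under 0.05 the count was also 0, where 1.33% of all genes passed (0.732% higher and 0.597% lower), and DESeq2 and limma-voom called 0. In scaled counts the 2 labelled groups overlapped for every member, where they did not overlap for 5.93% of all genes (3.03% higher and 2.9% lower). The estimates were above 0 for 4 members and below 0 for AEBP1 and CPD, where 49.4% of all genes were above and 50.6% below, with a median log2 fold change of 0.13 against -0.0023 over all genes tested. CPXM2 and CPN1 were not tested, having no counts. Without replicate 3 of both groups, 0 of the 5 members tested had an edgeR adjusted p under 0.05, where 0.00614% of all genes did. There, AEBP1 alone had an unadjusted p under 0.05, where 4.7% of all genes did, and its level chose those libraries.

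**Figure D2:**
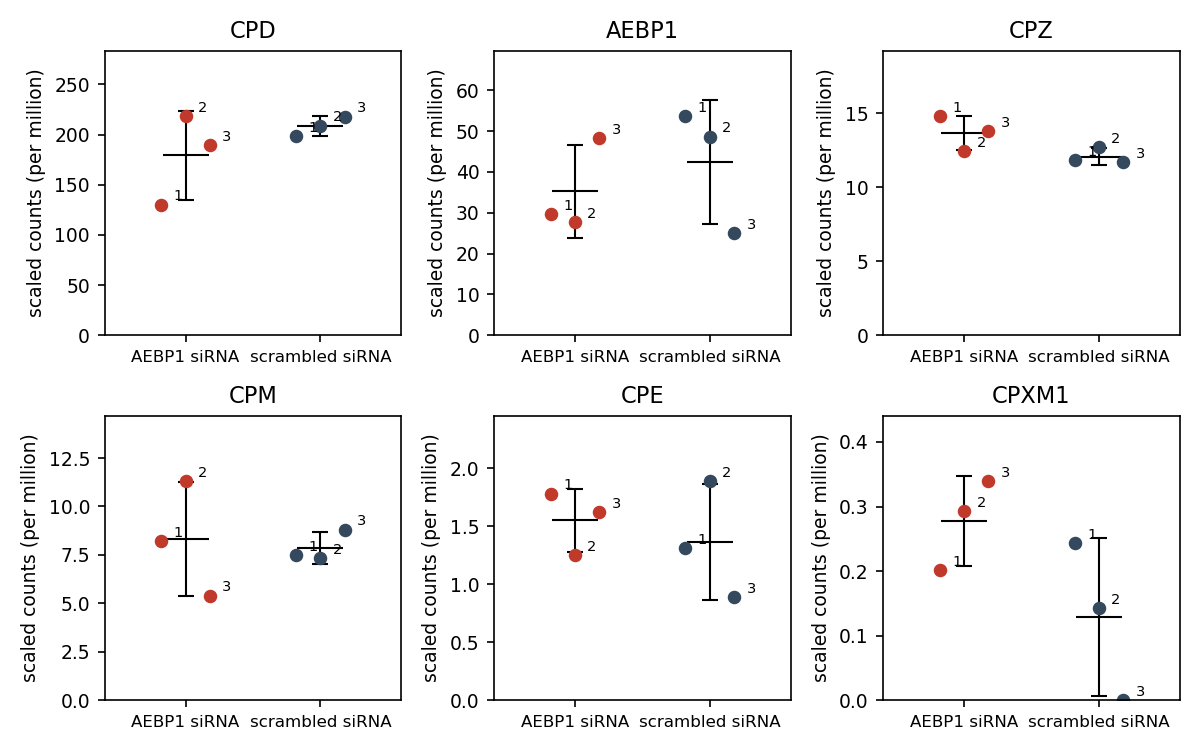
Scaled counts of each detected member, with AEBP1 siRNA libraries left and scrambled siRNA libraries right. Numbers are replicates, and bars are the mean ± SD of 3 libraries. AEBP1 siRNA 3 and scrambled siRNA 3 are at 48.3 and 25.1 scaled counts for AEBP1, and AEBP1 siRNA 1 is the lowest library for CPD.

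CPD had 130.3, 218 and 189 scaled counts in AEBP1 siRNA 1, 2 and 3, and 199, 209 and 218 in scrambled siRNA 1, 2 and 3. A single library, AEBP1 siRNA 1, stood below the other 5. This gave CPD a log2 fold change of -0.22 with an SE of 0.176 and an interval of -0.62 to 0.18 (edgeR adjusted p = 0.991), and without AEBP1 siRNA 1 it was -0.03. Long transcripts were low in that library. Among 1089 genes with a mean of at least 5 scaled counts and a length of at least 8000 bases, as the deposited counts and FPKM imply it, the median was -0.48 on the log2 scale in AEBP1 siRNA 1 relative to the mean of the 6 libraries, and 94.1% of these genes were below 0. The corresponding value of CPD was -0.55. In the other 5 libraries the median of those genes lay between -0.02 and 0.16. The part of transcript length in the CPD value was not tested.

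CPZ had 14.8, 12.5 and 13.8 scaled counts in AEBP1 siRNA 1, 2 and 3, and 11.8, 12.7 and 11.7 in scrambled siRNA 1, 2 and 3. All values were close, and AEBP1 siRNA 2 fell below scrambled siRNA 2. CPZ had a log2 fold change of 0.18, with an SE of 0.132 (edgeR adjusted p = 0.991), and its 95% interval of -0.12 to 0.48 was the tightest of the 6 members tested. It was 0.15 without replicate 3 of both groups.

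CPM, which takes arginine off kinins at the cell surface, had 8.23, 11.3 and 5.4 scaled counts in AEBP1 siRNA 1, 2 and 3, and 7.47, 7.31 and 8.81 in scrambled siRNA 1, 2 and 3. Its highest and lowest values were both in the libraries labelled AEBP1 siRNA. The lowest, AEBP1 siRNA 3, was a library where AEBP1 was high, and the highest values, in AEBP1 siRNA 2 and scrambled siRNA 3, were in libraries where AEBP1 was low. CPM had a log2 fold change of 0.08, with an SE of 0.257 and an interval from -0.51 to 0.67 (edgeR adjusted p = 0.991). It was 0.4 without replicate 3 of both groups, and it changed sign to -0.21 without AEBP1 siRNA 2. CPM overlaps the p53 regulator MDM2 in RefSeq, so its count is uncertain where the counting could not separate them. MDM2 was far more abundant, at 105 ± 10.2 scaled counts in the libraries labelled AEBP1 siRNA and 109.8 ± 3.81 in those labelled scrambled siRNA (SD, n = 3 each).

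CPE had 1.78, 1.25 and 1.62 scaled counts in AEBP1 siRNA 1, 2 and 3, and 1.31, 1.89 and 0.89 in scrambled siRNA 1, 2 and 3. The values interleave, with raw counts of 39 to 93 per library. CPE had a log2 fold change of 0.18 with an SE of 0.342 and an interval from -0.60 to 0.97 (edgeR adjusted p = 0.991), and its sign changed to -0.05 without scrambled siRNA 3 and to -0.08 without replicate 3 of both groups.

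CPXM1 was near the limit of detection, with 7, 11 and 14 counts in AEBP1 siRNA 1, 2 and 3, and 10, 7 and 0 counts in scrambled siRNA 1, 2 and 3. Its log2 fold change of 1.11 had an SE of 0.913 and a 95% interval of -0.99 to 3.21 (edgeR adjusted p = 0.991). Without scrambled siRNA 3, the library with 0 counts, it was 0.53, and without scrambled siRNA 1 it was 1.89. It was 1.91 by limma-voom and 0.07 on the log2(FPKM + 1) scale, and it was not tested without replicate 3 of both groups because it fell below the filter on low counts.

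**Figure D3:**
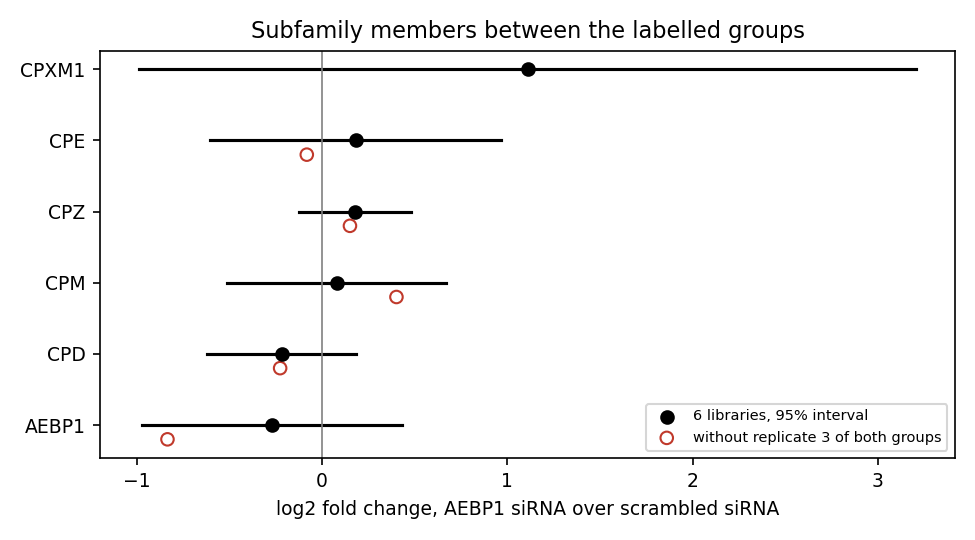
Log2 fold changes, AEBP1 siRNA over scrambled siRNA, of the 6 members tested, with 95% intervals (filled points and bars, 3 libraries per group) and without replicate 3 of both groups (open points). Every interval includes 0, and AEBP1 is at -0.27 with all 6 libraries and at -0.83 without replicate 3.

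The genes whose profile was most like that of AEBP1 were ranked by the root mean square difference between log2 scaled counts, each centred on its own mean over the 6 libraries, among 11066 genes with a symbol and a mean of at least 5 scaled counts. The 5 nearest were PSAT1 at 0.037, JKAMP at 0.0394, LAMB3 at 0.0474, VSIG10 at 0.0865 and PITPNB at 0.0923, where the median gene was at 0.462. PSAT1 makes serine, LAMB3 is a laminin chain of epithelial basement membrane, and PITPNB transfers phosphatidylinositol between membranes.

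PSAT1 had 435, 401 and 708 scaled counts in AEBP1 siRNA 1, 2 and 3, and 764, 719 and 389 in scrambled siRNA 1, 2 and 3. JKAMP had 40.4, 38.3 and 69.8, and 72.5, 68.7 and 33.4 scaled counts in the same order. LAMB3 had 65.8, 62.2 and 105.7, and 109, 103 and 54.9 scaled counts. In each of them, AEBP1 siRNA 3 lay with scrambled siRNA 1 and 2, and scrambled siRNA 3 was the lowest library, as for AEBP1. Like AEBP1, these 5 genes had edgeR adjusted p-values of 0.991 between the labelled groups. The genes were picked for this likeness, so it is a description over 6 libraries. By log2(FPKM + 1) only LAMB3, at rank 3, was again among the 5 nearest of the 11066 genes. There PSAT1 ranked 8, VSIG10 19, JKAMP 22 and PITPNB 71.

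The relatives were compared with the AEBP1 profile in the same way. The 5 genes above were picked as the nearest, so CPZ, CPD and CPM were farther by construction. A gene flat over the 6 libraries would be at 0.443, the root mean square of the AEBP1 profile itself. The difference from the AEBP1 profile was 0.392 for CPE, 0.459 for CPZ, 0.491 for CPD and 0.709 for CPM. For CPXM1 it was 0.869. Of the genes compared, 16.0% were nearer to AEBP1 than CPE was, 48.2% than CPZ, 66.3% than CPD, 98.2% than CPM and 99.2% than CPXM1. CPE and CPXM1 lie below the mean of 5 scaled counts set for the genes compared.

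**Figure D4:**
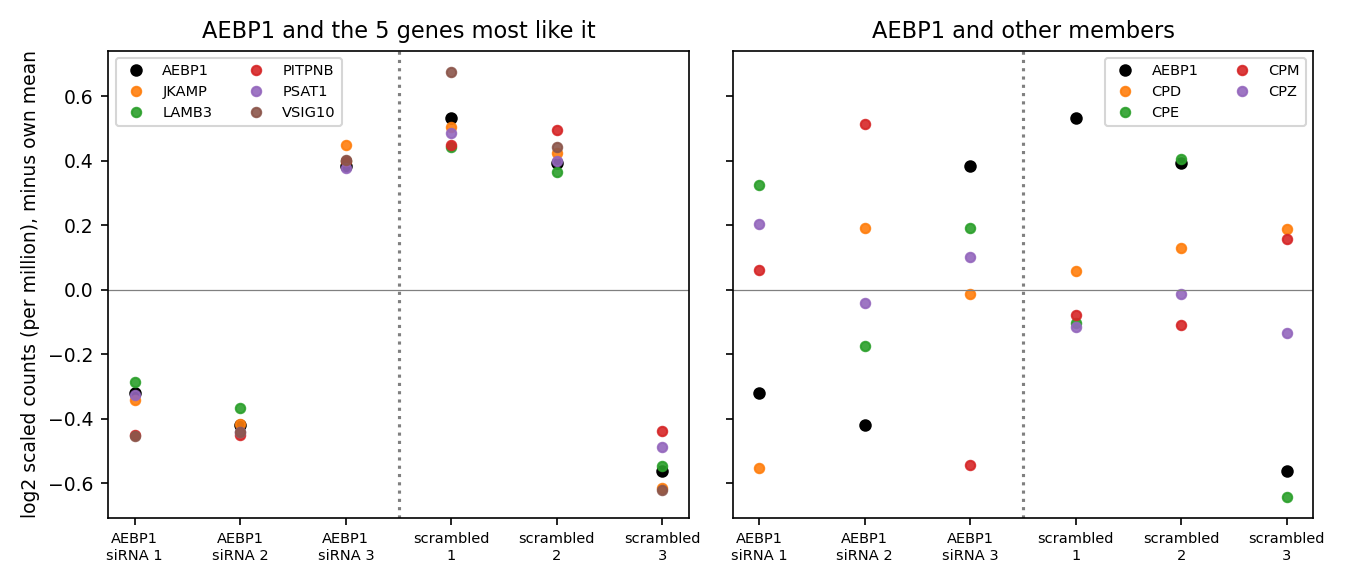
Log2 scaled counts minus each gene's own mean over the 6 libraries, with AEBP1 siRNA libraries left of the dotted line and scrambled siRNA libraries right. On the left, PSAT1, JKAMP, LAMB3, VSIG10 and PITPNB lie near the AEBP1 points. On the right, CPD, CPZ, CPM and CPE lie farther from them in most libraries, with CPM at -0.54 and AEBP1 at 0.38 in AEBP1 siRNA 3.

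The deposited counts and FPKM of AEBP1 differed in how far apart the libraries were. Dividing one by the other gives the length that the FPKM imply, up to the authors' scaling. For AEBP1 it was 3772, 3970 and 4116 bases in AEBP1 siRNA 1, 2 and 3, and 4345, 4210 and 3972 bases in scrambled siRNA 1, 2 and 3. The library with the most AEBP1, scrambled siRNA 1, also had the longest implied length, and the 3 libraries under 30 scaled counts had the 3 shortest. The highest value exceeded the lowest by 15.2%, a wider range than for 81.7% of 12031 genes with at least 100 counts in every library, whose median was 4.66%.

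On the log2(FPKM + 1) scale the AEBP1 difference between the groups was -0.14 (limma adjusted p = 0.992). With log2(FPKM + 0.1) it was -0.16 (limma adjusted p = 0.991). The added 1 understates the change of low genes, and AEBP1 was at 6.35 to 12.3 FPKM. GENCODE lists 9 AEBP1 transcripts, and no source used here says how transcripts entered the FPKM. CPM also varied, by 13.2%, with its shortest implied lengths in scrambled siRNA 1 and 3. CPZ varied by 5.3%, CPD by 1.9% and CPE by 1.44%.

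**Figure D5:**
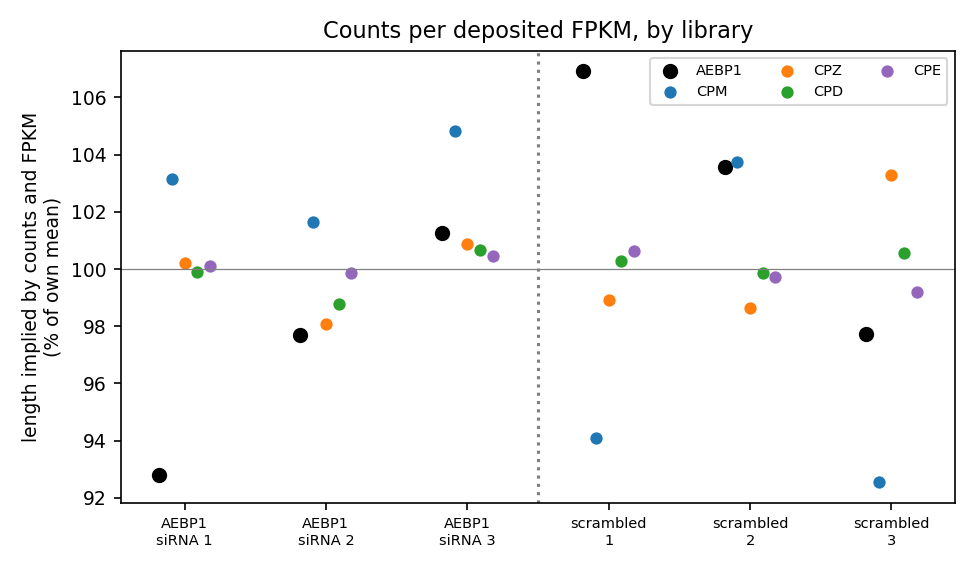
Length implied by the deposited counts and FPKM, as a percentage of each gene's mean over the 6 libraries, with AEBP1 siRNA libraries left of the dotted line and scrambled siRNA libraries right. AEBP1 runs from 3772 bases in AEBP1 siRNA 1 to 4345 bases in scrambled siRNA 1, while CPD and CPE stay near 100.

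Related genes were described by lists rather than by how they moved. Of 15 other metallocarboxypeptidases, which trim digestive, mast cell or plasma substrates or shorten tubulin tails, 11 had counts and 6 were tested. Of these, 0 were called in either direction, where 0.00615% of all genes were. An unadjusted p under 0.05 was found for 0, where 1.33% of all genes had one. The groups did not overlap for 1, where they did not for 5.93% of all genes. The median log2 fold change was 0.08. The abundant ones were the tubulin deglutamylases AGBL5, at 30.2 ± 3.67 scaled counts in the libraries labelled AEBP1 siRNA and 33.2 ± 3.9 in those labelled scrambled siRNA, and AGTPBP1, at 44.9 ± 3.51 and 44.4 ± 2.67 (SD, n = 3 each). AGBL3 averaged 2.52 and 2.29 scaled counts and CPA4, a secreted carboxypeptidase, 1.46 and 1.33, in the same order of groups. Each of these 4 genes had an edgeR adjusted p of 0.991.

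Of 14 convertases, other processing partners and carboxypeptidase inhibitors, 11 were tested. None was called, where 0.00615% of all genes were, and 0 had an unadjusted p under 0.05, where 1.33% did. The groups did not overlap for 1, where they did not for 5.93% of all genes. The median log2 fold change was -0.04. FURIN, which cuts precursors before CPD trims them, was at 114 ± 6.97 scaled counts in the libraries labelled AEBP1 siRNA and 119 ± 3.39 in those labelled scrambled siRNA. PAM, which amidates peptide ends exposed by the carboxypeptidases, was at 102 ± 4.83 and 103 ± 4.5, and the convertase PCSK7 at 121 ± 7.83 and 117 ± 5.03. MBTPS1, the site-1 protease, was at 58.1 ± 4.7 and 59.6 ± 4.77 scaled counts (SD, n = 3 each). Each of these 4 genes had an edgeR adjusted p of 0.991. The convertases PCSK1 and PCSK2, which work with CPE in granules, were at 0 to 2 counts per library.

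Some genes of these lists had counts in 1 labelled group only and were too low for the test across genes. Of these, CPO, CPB2 and CPN2 were picked with their values in view, and they had the largest bounds. Their bounds pool the libraries of a group, set the group at 0 to a floor of 3 counts, and cover counting error only. Since being at 0 in 1 group chose these genes, the bounds describe them and are no test. The share of all low genes with such a pattern was not counted. CPO, an intestinal carboxypeptidase, had 9, 1 and 6 counts in AEBP1 siRNA 1, 2 and 3 and 0 in each library labelled scrambled siRNA, at least 6.31-fold higher. CPB2, a plasma carboxypeptidase that slows clot breakdown, had 0 counts in each library labelled AEBP1 siRNA. It had 12, 11 and 0 counts in scrambled siRNA 1, 2 and 3. Pooled over libraries CPB2 was at least 6.48-fold lower, but the groups overlapped, as scrambled siRNA 3 was also at 0. CPN2, the carrier subunit that pairs with CPN1 in plasma, had 0 counts in each library labelled AEBP1 siRNA and 5, 7 and 5 counts in scrambled siRNA 1, 2 and 3, at least 4.79-fold lower. CPA5, a further gene of these lists, had 4 counts in AEBP1 siRNA 3 and 0 in every other library. Its bound was at least 1.58-fold higher. The exact two-sided permutation p was 0.1 for CPO and CPN2, the smallest that 3 against 3 allows, and 0.4 for CPB2. Being at 0 in 1 group chose these genes, so these p-values are no test either.

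Of 12 genes reported elsewhere as partners or targets of AEBP1, 11 were tested. Of these, 0 were called, where 0.00615% of all genes were, and 0 had an unadjusted p under 0.05, where 1.33% did. The groups overlapped for all 11, and the median log2 fold change was -0.07. FABP4, the adipocyte gene whose enhancer gave AEBP1 its name, was at 0 counts in all 6 libraries. GNG5, a G protein subunit, was at 189 ± 31.8 scaled counts in the libraries labelled AEBP1 siRNA and 176 ± 17.4 in those labelled scrambled siRNA. The kinase MAPK3 was at 32 ± 3.31 scaled counts in the libraries labelled AEBP1 siRNA and 29.4 ± 0.895 in those labelled scrambled siRNA (SD, n = 3 each). Both genes had an edgeR adjusted p of 0.991.

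NFKBIA, the NF-kB inhibitor that AEBP1 binds in mouse macrophages, had 157, 132 and 177 scaled counts in AEBP1 siRNA 1, 2 and 3, and 189, 161 and 115 in scrambled siRNA 1, 2 and 3. Its lowest libraries were scrambled siRNA 3 and AEBP1 siRNA 2, which were also the lowest for AEBP1. The share of all genes with these 2 lowest libraries was not counted, and RNA levels do not measure that binding. The log2 fold change between the labelled groups was 0.0052, with an SE of 0.188 (edgeR adjusted p = 0.998).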

How the data were processed

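For each gene in 6 libraries the authors deposited raw counts beside FPKM, which are fragments scaled to gene length and library size, per the file headers. Coordinates were on hg19, as the submitters' processing notes list. The aligner, counter, annotation and strand setting are not stated in the labels or headers. Of 24806 lines, 17 held text without values and were left out, and 27 symbols stored as dates were replaced by symbols looked up by gene ID.

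Low genes were removed with filterByExpr, and TMM factors scaled the libraries. The test was the quasi-likelihood test of edgeR 4.0.16 (R 4.3.3) of group alone. P-values were adjusted by Benjamini-Hochberg over 16250 genes, and an adjusted p under 0.05 was called. The fit was tested on simulated data. An SE is the size of the log2 fold change over the square root of F. Alternatives used limma 3.58.1 and DESeq2 1.42.0, other scalings and filters, a replicate block and libraries left out. Profiles used a prior count of 2. The counts of all 15 library pairs differed by more than sampling noise, so no library was a copy. Coding stretches were found with patterns in translated GENCODE release 29 sequences, adjusted until every member matched. The planned protein alignment was not made, since no protein table was used here. RefSeq is the source for neighbouring genes only. Floors cover counting error only.

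The members, lists and tests were chosen with earlier results of these data known. The genes named are all members, up to 4 genes of each list by highest mean FPKM, the 5 genes most like AEBP1 and its flanking genes. One gene that this rule picks is not reported here. MDM2, PCSK1, PCSK2, CPN2, CPO, CPB2, CPA5 and FABP4 fall outside this rule and were named after their values were seen.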

Additional observations from a re-analysis of the deposited data

How the results depend on the processing

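No member was called by any of the 17 alternatives run. The AEBP1 log2 fold change stayed below 0, from -0.83 without replicate 3 of both groups to -0.066 without scrambled siRNA 1, with adjusted p-values of 0.378 to 1. The -0.83 and the 0.378 are from the same fit and are a description only, since the AEBP1 level itself chose the libraries left out. CPD stayed below 0 and CPZ and CPXM1 above 0, with CPXM1 between 0.074 and 1.91. CPM was at -0.021 with log2(FPKM + 1) and -0.059 with log2(FPKM + 0.1), and ran from -0.209 to 0.401 with libraries left out. CPE ran from -0.083 to 0.493 with libraries left out, and was at -0.048 without scrambled siRNA 3. Single libraries left out moved CPM between -0.209 without AEBP1 siRNA 2 and 0.312 without AEBP1 siRNA 3. The cause of these reversals was not tested. Against 1 gene called among all genes, the replicate block gave 2, no filter 3, DESeq2 6, limma-voom 2 and log2(FPKM + 0.1) 3, and libraries left out gave 0 (without scrambled siRNA 1 or 2) to 2 (without AEBP1 siRNA 2). Replicate numbers did not show pairing: deviations of same-numbered libraries correlated at 0.0961, -0.00776 and -0.102. With the replicate block, the log2 fold change of AEBP1 was -0.256. Of the 5 genes most like AEBP1, 1 was again among the nearest 5 by FPKM, where their ranks ran from 3 to 71 of 11066 genes. CPE and CPXM1 are below a mean of 5 scaled counts and have no value under that filter. CPE had 39 to 93 counts per library and CPXM1 0 to 14; the part of depth in their spread was not tested.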
